A study of Mus musculus with 6 samples.

Results

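The genes of the transforming growth factor beta (TGF-beta) ligands, their receptors and the proteins that hold the ligands latent are described here in the pressure-overloaded mouse heart. The members were 3 ligands (Tgfb1, Tgfb2 and Tgfb3), 3 receptors (Tgfbr1, Tgfbr2 and Tgfbr3) and 4 latent TGF-beta binding proteins (Ltbp1, Ltbp2, Ltbp3 and Ltbp4), chosen by symbol. All 10 were found by NCBI gene ID among the 18019 IDs of the table, and all 10 passed the filter (an average of 1 FPKM or more), which left 11422 genes. FPKM is a level per length, namely the fragments counted per kilobase of a gene out of a fixed total.

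Hearts were taken 8 weeks after transverse aortic constriction (TAC), in which the aorta is narrowed and the left ventricle has to pump against a higher pressure. The VNS-TAC group (3 libraries) came from wild-type mice whose dorsal vagal motor nucleus was injected with rAAV-ChAT-hChR2[H134R]-GFP, a virus that puts a light-gated channel under the choline acetyltransferase promoter so that vagal preganglionic neurones can be driven by light. Per the labels these neurones were activated optogenetically, which VNS (vagus nerve stimulation) stands for, and the libraries of this group carry the name X10Hz_TAC. The labels do not say for how long or how often light was given. The Ctrl-TAC group (3 libraries) came from wild-type mice given rAAV-ChAT-GFP, the same virus without the channel. Both groups carried the constriction and a virus, and there was no unconstricted heart among the 6 libraries. The labels name no strain, sex or age and do not say whether animals were pooled. The VNS-TAC libraries are numbered as in the deposited table, where their numbers match no library name in the labels. They were placed in this group by the name X10Hz_TAC, and which labelled sample each one is, if any, is not settled.

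TGF-beta is made as a precursor that furin-type enzymes cut, but the cut-off propeptide stays wrapped around the ligand and keeps it latent. Ltbp1, Ltbp3 and Ltbp4 bind this latent complex and tether it to fibrillin and fibronectin in the matrix, and integrins, thrombospondin 1 and proteases can release it. Free ligand is gripped by Tgfbr2, which switches on Tgfbr1, and Tgfbr1 phosphorylates Smad proteins that turn on matrix genes. In the heart this pathway is best known for turning fibroblasts into matrix-producing myofibroblasts under pressure overload.

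Depth, read from the steps between low FPKM values, came to roughly 13740000 to 15920000 fragments in each library. By that estimate a member rested on between about 110 fragments (Ltbp2 in its lowest library) and about 16590 fragments (Ltbp4 in its highest). The VNS-TAC libraries varied more than the Ctrl-TAC libraries, and limma's array weights were 0.246, 2.82 and 0.247 for VNS-TAC 1, 2 and 3, against 2.90, 1.88 and 1.07 for Ctrl-TAC 1, 2 and 3. The cardiomyocyte markers (11 of 11 detected, among them Myh6, Tnnt2 and Myl2) summed to 46697 to 68219 FPKM in VNS-TAC and 50805 to 51782 FPKM in Ctrl-TAC.

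Of the 10 members, 8 had a log2 fold change below 0 (61.8% of all genes tested did), and 2, both receptors, had one above 0. In 6 members every VNS-TAC library lay below every Ctrl-TAC library, namely Tgfb2, Tgfb3, Ltbp1, Ltbp2, Ltbp3 and Ltbp4, and no member lay above without overlap. Of all 11422 genes tested, 17.4% lay below without overlap and 8.01% above. The same 6 members had an unadjusted p under 0.05 in limma, all lower, against 11.3% of all genes lower and 3.79% higher at that level. After Benjamini-Hochberg adjustment over all genes 0 members and 0 genes (0% of those tested) passed 0.05 in limma, and the smallest adjusted p of a member was 0.156, for Tgfb3. No member can therefore be called changed at that threshold. When limma weighted each library by its array weight, which rests the VNS-TAC side mainly on VNS-TAC 2, 4 members (Tgfb1, Tgfb2, Tgfb3 and Ltbp4) and 1016 of the 11422 genes passed it. The background moved as well, with 22.0% of all genes lower at an unadjusted p under 0.05 in that weighted limma fit. Without VNS-TAC 1 or without VNS-TAC 3, the libraries with the lowest weights, 7 members were lower at an unadjusted p under 0.05 in limma. There were 6 without VNS-TAC 2 and 4 without any 1 of the Ctrl-TAC libraries. Of all genes tested, 14.9%, 10.6% and 16.7% were lower at that level without VNS-TAC 1, 2 and 3. Without Ctrl-TAC 1, 2 and 3 the shares were 5.5%, 5.2% and 8.6%, so the background moved with the member counts. The median log2 fold change was -0.54 over the members and -0.08 over all genes tested.

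The excess of lower genes at an unadjusted p under 0.05 depended on the scaling of the libraries. Higher genes made up 25.2% of those genes as deposited, 53.3% with size factors, 54.4% after quantile normalization, 10.8% with every library set to the same sum, and 43.2% or 48.2% once each library was corrected for GC content or for gene length. The members at that level, all lower, numbered 4, 5, 7, 6 and 3 of 10 in these 5 settings, taken in the same order, and Tgfb2, Tgfb3 and Ltbp2 were among them each time. Of all genes tested, 7.0%, 6.6%, 15.5%, 8.2% and 7.6% were lower at that level in the same 5 settings. The members have many exon bases, with a median of 6540 when all annotated transcripts of a gene are merged, against 4479 over all genes tested.

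**Figure D1:**
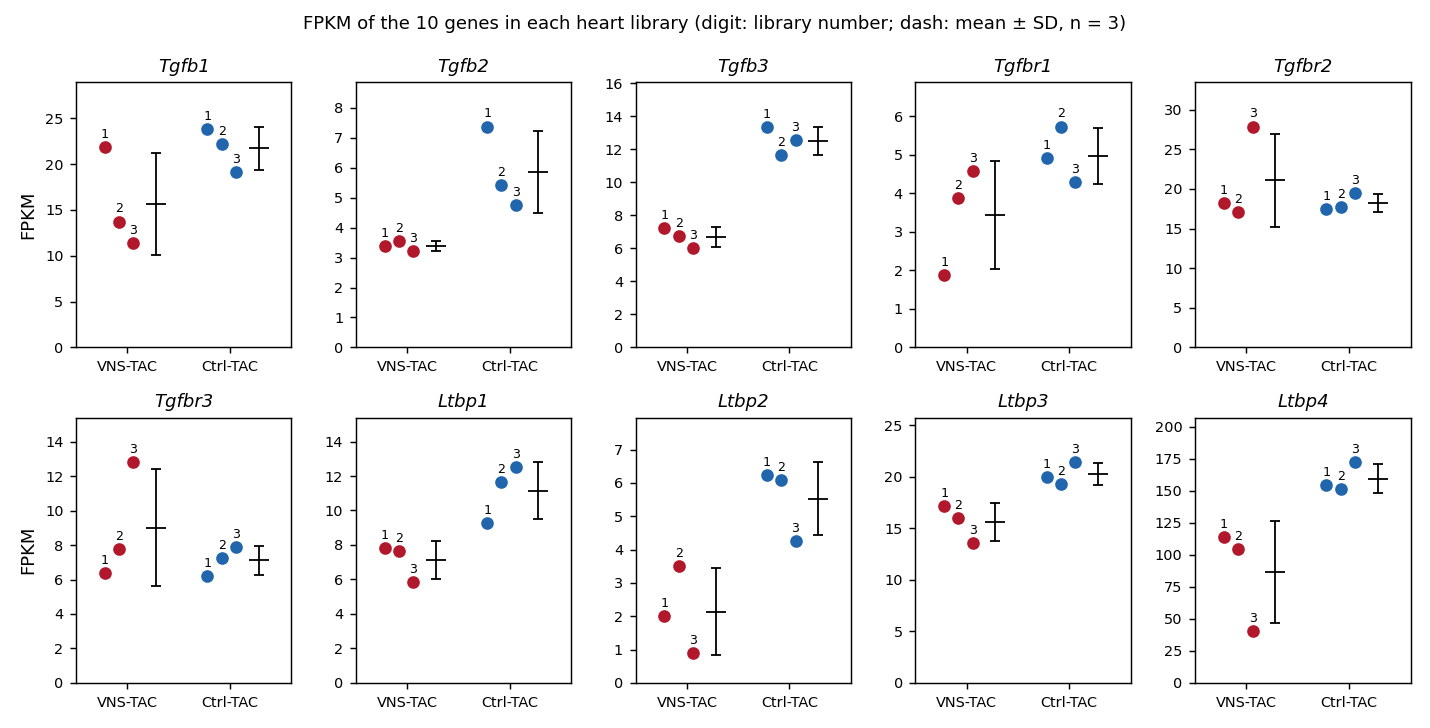
FPKM of each of the 10 genes (vertical axis from 0) in the VNS-TAC and Ctrl-TAC libraries, with 1 point per library, its number beside it, and the mean ± SD of 3 libraries as a dash with bars. The 3 red VNS-TAC points sit below all 3 blue Ctrl-TAC points for Tgfb2, Tgfb3 and the 4 Ltbp genes, and VNS-TAC 3 lies far from the other 2 VNS-TAC libraries for Ltbp4, Tgfbr2 and Tgfbr3.

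The levels of the members spanned a wide range. In VNS-TAC hearts Ltbp4 was highest at 86.4 FPKM on average, followed by Tgfbr2 (21.1), Tgfb1 (15.7) and Ltbp3 (15.6), then Tgfbr3 (9.0), Ltbp1 (7.10) and Tgfb3 (6.66), and last Tgfbr1 (3.44), Tgfb2 (3.39) and Ltbp2 (2.13). In Ctrl-TAC hearts Ltbp4 was also highest at 160 FPKM, followed by Tgfb1 (21.7), Ltbp3 (20.3) and Tgfbr2 (18.2), then Tgfb3 (12.5) and Ltbp1 (11.2), and last Tgfbr3 (7.11), Tgfb2 (5.84), Ltbp2 (5.53) and Tgfbr1 (4.97). Within each of these steps the ranges of neighbouring genes over the libraries overlapped. Between steps they did not overlap in Ctrl-TAC, but in VNS-TAC the ranges of Tgfb1 and Tgfbr3 did, since Tgfbr3 (12.8 FPKM) lay above Tgfb1 (11.4 FPKM) in VNS-TAC 3. Tgfb3 stood above Tgfbr3 in every Ctrl-TAC library, and in VNS-TAC only in library 1.

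The ligands were lower as a class. Their summed FPKM was 32.5, 24.0 and 20.6 in VNS-TAC 1, 2 and 3, against 44.5, 39.3 and 36.5 in Ctrl-TAC 1, 2 and 3, a log2 difference of -0.66. The sums did not overlap, which gives the smallest p that 3 libraries against 3 allow (exact permutation test, 2-sided, p = 0.1, and 0.15 adjusted over the 3 classes). In heart tissue as a whole, fewer cells that make a transcript and less of it per cell cannot be told apart.

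Tgfb3 (chromosome 12, 86056743 to 86079041, GRCm38), the isoform known in development for palate and lung, had the smallest p of the 10 genes. It was at 7.23, 6.74 and 6.02 FPKM in libraries VNS-TAC 1, 2 and 3, against 13.35, 11.65 and 12.59 FPKM in Ctrl-TAC 1, 2 and 3. The highest VNS-TAC library was still well under the lowest Ctrl-TAC library, and neither group varied much. The mean in VNS-TAC was 53.2% of that in Ctrl-TAC (6.66 ± 0.61 against 12.5 ± 0.85 FPKM, SD, n = 3), a log2 fold change of -0.82 ± 0.13 (SE). Tgfb3 ranked 16 of 11422 genes by limma's p (unadjusted p = 0.000256, adjusted p = 0.156). With any 1 library left out its log2 fold change lay between -0.87 and -0.76. Gm48008 and Gm37804, annotated on the opposite strand, cover 7.6% and 4.82% of its exon bases, and the strand setting of the counting is not stated.

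Tgfb2 (chromosome 1, 186622787 to 186709697), the isoform that needs the co-receptor Tgfbr3 to bind well, was the ligand with the least spread within VNS-TAC. It was at 3.39, 3.56 and 3.22 FPKM in libraries VNS-TAC 1, 2 and 3, against 7.37, 5.42 and 4.74 FPKM in Ctrl-TAC 1, 2 and 3. All VNS-TAC libraries were low and close together, while the Ctrl-TAC libraries ranged more widely and Ctrl-TAC 1 was the highest. The log2 fold change was -0.62 ± 0.17 (SE), with a limma adjusted p of 0.232. Without Ctrl-TAC 1 it was -0.47, and with a pseudocount of 5 it was -0.36.

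Tgfb1 (chromosome 7, 25687002 to 25705077), the isoform most tied to cardiac fibrosis and also made by leukocytes and platelets, was the most abundant ligand, and its groups overlapped. It was at 21.9, 13.7 and 11.4 FPKM in libraries VNS-TAC 1, 2 and 3, against 23.8, 22.2 and 19.1 FPKM in Ctrl-TAC 1, 2 and 3. VNS-TAC 2 and 3 lay below all Ctrl-TAC libraries, and VNS-TAC 1 lay among them. The log2 fold change was -0.49 ± 0.23 (SE), with a 95% confidence interval of -1.03 to 0.05 and a limma adjusted p of 0.356. Without VNS-TAC 1 it was -0.75, and without VNS-TAC 3 it was -0.30. The mean of the 10 macrophage and monocyte markers that could be tested (among them Cd68, Csf1r and Lyz2) ran in the same order. It differed from Ctrl-TAC by 0.20, -0.31 and -0.61 on the log2 scale in libraries VNS-TAC 1, 2 and 3, beside 0.02, -0.62 and -0.87 for Tgfb1. Not every marker followed it, since Mrc1 had 3.07, 3.88 and 3.81 FPKM in these libraries. The summed level of all 11 markers was 241 to 461 FPKM in VNS-TAC and 355 to 389 FPKM in Ctrl-TAC, and none was at 0 throughout. That order was not particular to them. The means of the tested fibroblast (-0.41, -0.56 and -1.25), platelet (0.09, -0.26 and -0.49) and erythrocyte markers (2.21, 0.01 and -3.06) fell in it too. Those of the endothelial and cardiomyocyte markers did not. The 5 neutrophil markers that could be tested did not run in that order either. Their mean log2 difference from Ctrl-TAC was 2.27, 1.97 and 2.91 in libraries VNS-TAC 1, 2 and 3. The platelet markers summed to 13.6 to 35.6 FPKM in VNS-TAC and 24.3 to 26.3 FPKM in Ctrl-TAC, most of it Pf4, which resident macrophages also express. Their part in the result was not tested.

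The genes with the pattern most like each ligand were sought among the 7647 other genes that averaged 5 FPKM or more, by the root mean square difference of log2(FPKM + 1) after each gene was centred on its mean of the 6 libraries. For Tgfb1 these were Lcp1, an actin-bundling protein of leukocytes, with 9.67, 5.49 and 4.75 FPKM in the VNS-TAC libraries against 10.86, 9.57 and 9.02 FPKM in the Ctrl-TAC libraries (difference 0.055), and Hcls1, a cortactin-like protein of blood cells (0.069). For Tgfb2 they were Tmem267 (0.077) and Ap1s2, a clathrin adaptor subunit (0.095). For Tgfb3 they were Rcn1, a calcium-binding protein of the endoplasmic reticulum (0.086), and Ace, angiotensin-converting enzyme (0.087). Ace had 22.5, 25.5 and 20.4 FPKM in the VNS-TAC libraries, against 40.4, 37.4 and 39.1 FPKM in Ctrl-TAC. With 6 libraries, many genes can lie this close, and the likeness is a description.

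The groups overlapped for the receptors as a class. Their summed FPKM was 26.5, 28.8 and 45.3 in VNS-TAC 1, 2 and 3, against 28.5, 30.7 and 31.6 in Ctrl-TAC 1, 2 and 3, a log2 difference of 0.11 that turned to -0.13 without VNS-TAC 3. The exact permutation p was 0.9. A sum of ligands over receptors, formed after the values were seen, was 1.23, 0.836 and 0.455 in VNS-TAC 1, 2 and 3, against 1.56, 1.28 and 1.15 in Ctrl-TAC 1, 2 and 3. These ratios overlapped, since VNS-TAC 1 lay above Ctrl-TAC 3 (exact permutation test, 2-sided, p = 0.2, and 0.267 adjusted over 4 ratios), so the difference between the classes was not shown beyond the spread.

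Tgfbr1 (chromosome 4, 47353222 to 47414926), the kinase that phosphorylates Smad2 and Smad3, was at 1.87, 3.87 and 4.57 FPKM in libraries VNS-TAC 1, 2 and 3, against 4.91, 5.73 and 4.28 FPKM in Ctrl-TAC 1, 2 and 3. VNS-TAC 1 was far below all others, and VNS-TAC 3 lay within the range of Ctrl-TAC. The log2 fold change was -0.48 ± 0.25 (SE), with a 95% confidence interval of -1.07 to 0.12 and a limma adjusted p of 0.4, and it was -0.19 without VNS-TAC 1. Corrected for the GC trend of each library it was -0.20. Tgfbr1 has the lowest GC content of the members (41.0% in its longest transcript).

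Tgfbr2 (chromosome 9, 116087695 to 116175363), the receptor that ligand binds first, was at 18.3, 17.1 and 27.9 FPKM in libraries VNS-TAC 1, 2 and 3, against 17.4, 17.7 and 19.5 FPKM in Ctrl-TAC 1, 2 and 3. Tgfbr3 (chromosome 5, 107106567 to 107289629), the co-receptor betaglycan, had 6.36, 7.80 and 12.8 FPKM in the same VNS-TAC libraries, against 6.20, 7.27 and 7.87 FPKM in the Ctrl-TAC libraries. For both genes VNS-TAC 3 was the highest library, and VNS-TAC 1 and 2 lay within or next to the range of Ctrl-TAC. The log2 fold changes were 0.17 ± 0.19 and 0.25 ± 0.24 (SE), with 95% confidence intervals of -0.27 to 0.62 for Tgfbr2 and -0.30 to 0.81 for Tgfbr3. Without VNS-TAC 3 they were -0.04 and -0.01, so the sign of both rested on that library.

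The composition of the receptor pool was also measured, since a share within a library is untouched by the scaling of that library. Tgfbr1 made up 7.06%, 13.5% and 10.1% of the summed receptor FPKM in libraries VNS-TAC 1, 2 and 3, against 17.2%, 18.7% and 13.5% in Ctrl-TAC 1, 2 and 3. The groups did not overlap, though VNS-TAC 2 at 13.45% and Ctrl-TAC 3 at 13.54% nearly met (exact permutation test, 2-sided, p = 0.1, the smallest possible, and 0.286 adjusted over 10 shares). The difference was -6.27 percentage points, or -4.15 with the GC trend removed. Among the ligands Tgfb3 made up 22.3%, 28.04% and 29.2% in VNS-TAC, against 30.0%, 29.6% and 34.5% in Ctrl-TAC, again without overlap (exact permutation p = 0.1, adjusted 0.286). That difference was -4.88 percentage points, or -2.75 without VNS-TAC 1. Tgfb1 made up 67.3%, 57.2% and 55.1% of the ligand sum in VNS-TAC 1, 2 and 3, against 53.5%, 56.6% and 52.5% in Ctrl-TAC 1, 2 and 3. The groups overlapped, and the difference of 5.70 percentage points was 1.98 without VNS-TAC 1.

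**Figure D2:**
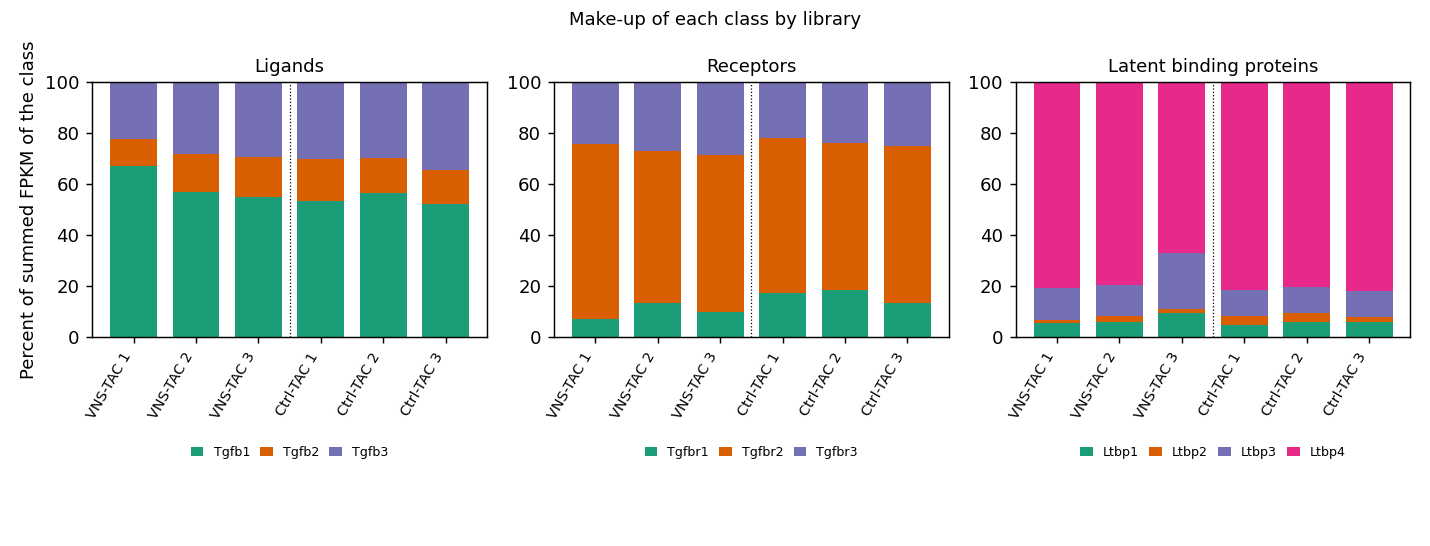
Percent of the summed FPKM of each class (vertical axis, 0 to 100) that each gene made up in each library, with VNS-TAC left and Ctrl-TAC right of the dotted line. Tgfbr1, the lowest block of the receptor bars, is smaller in the VNS-TAC bars (7.06% to 13.5%) than in the Ctrl-TAC bars (13.5% to 18.7%), and in VNS-TAC 3 the Ltbp4 block shrinks to 66.8%.

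The latent TGF-beta binding proteins were lower as a class. They summed to 141, 132 and 61.0 FPKM in libraries VNS-TAC 1, 2 and 3, against 190, 189 and 211 FPKM in Ctrl-TAC 1, 2 and 3, a log2 difference of -0.91 without overlap (exact permutation p = 0.1, adjusted 0.15 over 3 classes). Without VNS-TAC 3 the difference was -0.53. For all 4 genes each VNS-TAC library lay below every Ctrl-TAC library, as it did for 17.4% of all genes tested. VNS-TAC 3 was the lowest library for each of the 4.

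Ltbp4 (chromosome 7, 27305140 to 27339720), a binding protein that also guides elastic fibre assembly, supplied most of this sum. It was at 114, 104 and 40.7 FPKM in libraries VNS-TAC 1, 2 and 3, against 154, 152 and 173 FPKM in Ctrl-TAC 1, 2 and 3. All VNS-TAC libraries were lower, VNS-TAC 3 by far the most. The log2 fold change was -1.01 ± 0.36 (SE), with a limma adjusted p of 0.275, and it was -0.54 without VNS-TAC 3. Ltbp4 made up 80.9%, 79.4% and 66.8% of the class in VNS-TAC 1, 2 and 3, against 81.3%, 80.4% and 81.9% in Ctrl-TAC 1, 2 and 3, a difference of -5.53 percentage points that was -1.08 without VNS-TAC 3.

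Ltbp3 (chromosome 19, 5740900 to 5758536), a binding protein best known from its role in mouse bone and teeth, had the smallest difference of the class. It was at 17.2, 16.0 and 13.6 FPKM in libraries VNS-TAC 1, 2 and 3, against 20.01, 19.3 and 21.4 FPKM in Ctrl-TAC 1, 2 and 3. The groups were close but did not meet, and the log2 fold change was -0.36 ± 0.13 (SE; limma adjusted p = 0.273), or -0.21 when corrected for gene length. Its share of the class was higher in VNS-TAC, at 12.2%, 12.2% and 22.2%, against 10.5%, 10.2% and 10.2% in Ctrl-TAC, without overlap (exact permutation p = 0.1, adjusted 0.286). The difference was 5.21 percentage points, or 1.86 without VNS-TAC 3.

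Ltbp1 (chromosome 17, 75005480 to 75392512), which binds all isoforms of the ligand, was at 7.81, 7.67 and 5.83 FPKM in libraries VNS-TAC 1, 2 and 3, against 9.30, 11.6 and 12.5 FPKM in Ctrl-TAC 1, 2 and 3. The highest VNS-TAC library lay under the lowest Ctrl-TAC library, which was Ctrl-TAC 1. The log2 fold change was -0.58 ± 0.16 (SE), with a limma adjusted p of 0.242.

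Ltbp2 (chromosome 12, 84783212 to 84876558) is a member of the family by structure that does not bind the latent ligand, and it is a matrix protein induced by TGF-beta in fibroblasts. It was at 2.01, 3.50 and 0.89 FPKM in libraries VNS-TAC 1, 2 and 3, against 6.24, 6.09 and 4.26 FPKM in Ctrl-TAC 1, 2 and 3. All VNS-TAC libraries were lower, with VNS-TAC 3 lowest and VNS-TAC 2 nearest to Ctrl-TAC 3. The mean in VNS-TAC was 38.6% of that in Ctrl-TAC, the lowest ratio of the 10 genes. The log2 fold change was -1.13 ± 0.31 (SE; limma adjusted p = 0.236), and -1.50 and -0.57 with pseudocounts of 0.1 and 5 in place of 1. The antisense gene D030025P21Rik on the opposite strand covers 9.33% of its exon bases.

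**Figure D3:**
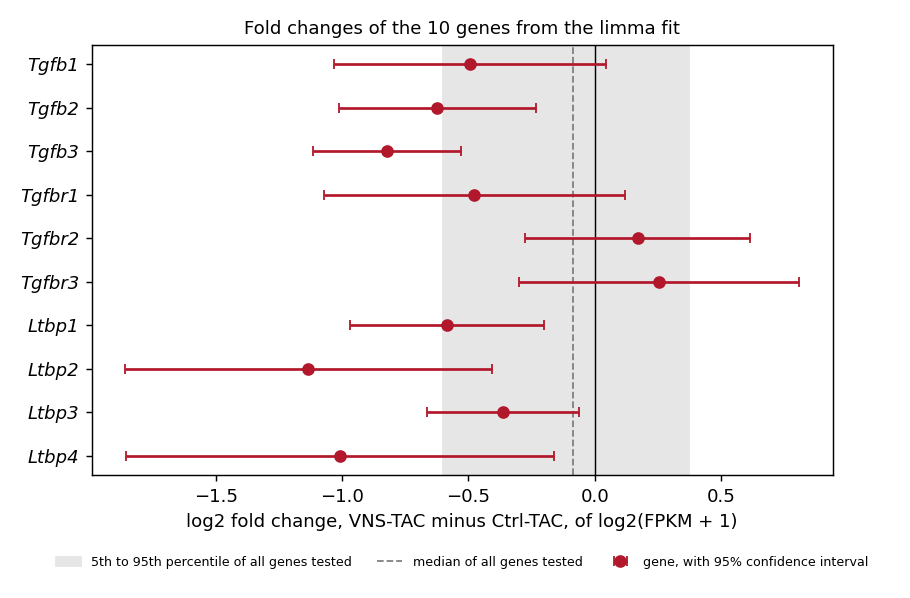
Log2 fold change of VNS-TAC minus Ctrl-TAC (horizontal axis, of log2(FPKM + 1)) for each gene with its 95% confidence interval from limma, over the range between the 5th and 95th percentile of all 11422 genes (grey, -0.60 to 0.37) and their median (dashed, -0.08). The intervals of Tgfb2, Tgfb3 and the 4 Ltbp genes lie below 0, those of Tgfb1 and the receptors include 0, and Ltbp2 at -1.13 has the lowest value.

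The sequence before the transcription start is shown for Tgfb1, Ltbp3 and Ltbp4, each lower on average in VNS-TAC, and for Tgfbr2, higher on average, in windows free of exons annotated in GENCODE M21. The windows of Tgfb1, Tgfbr2 and Ltbp3 end where the RefSeq gene begins, and that of Ltbp4 precedes a start within the gene. RefSeq windows on GRCm38.p6 matched 8 of the 10 members (12 windows, since some genes have several starts), and Tgfb3 and Tgfbr3 had none. Each sequence is 250 bases long, 5′ to 3′ on the gene's strand, ending at the base before the start. Capitals mark matches on either strand to motifs of 5 kinds, namely the AP-1 site TGANTCA, the cAMP response element TGACGTCA, the Sp1 box GGGCGG, the Smad element CAGACA and the TEAD site GGAATG, and matches to different motifs did not overlap here.
Tgfb1, chr7:25686752-25687001, plus strand: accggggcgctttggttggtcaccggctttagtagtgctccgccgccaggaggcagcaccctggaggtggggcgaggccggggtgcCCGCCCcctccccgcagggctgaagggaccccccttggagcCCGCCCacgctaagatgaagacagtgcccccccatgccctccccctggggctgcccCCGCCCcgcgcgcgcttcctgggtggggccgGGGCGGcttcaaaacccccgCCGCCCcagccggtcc
Tgfbr2, chr9:116175364-116175613, minus strand: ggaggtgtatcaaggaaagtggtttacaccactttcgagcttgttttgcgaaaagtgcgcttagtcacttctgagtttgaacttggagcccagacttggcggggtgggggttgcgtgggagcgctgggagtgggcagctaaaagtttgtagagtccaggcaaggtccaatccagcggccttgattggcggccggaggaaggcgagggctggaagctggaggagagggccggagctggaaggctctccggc
Ltbp3, chr19:5740650-5740899, plus strand: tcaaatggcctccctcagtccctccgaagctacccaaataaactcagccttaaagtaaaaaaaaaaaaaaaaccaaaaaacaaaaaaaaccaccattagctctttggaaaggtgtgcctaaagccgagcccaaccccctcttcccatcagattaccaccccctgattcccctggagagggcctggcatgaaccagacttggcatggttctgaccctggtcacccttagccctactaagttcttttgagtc
Ltbp4, chr7:27333664-27333913, minus strand: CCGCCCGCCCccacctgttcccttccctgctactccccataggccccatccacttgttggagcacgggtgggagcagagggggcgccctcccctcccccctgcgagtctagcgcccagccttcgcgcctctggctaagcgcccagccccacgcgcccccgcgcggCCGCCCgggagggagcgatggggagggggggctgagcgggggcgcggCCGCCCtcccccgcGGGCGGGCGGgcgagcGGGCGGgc

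The Tgfb1 window held 5 Sp1 boxes with a GC content of 75.2%, and the Ltbp4 window held 7, some of them overlapping each other, with a GC content of 79.2%. The Ltbp3 and Tgfbr2 windows held none of the 5 motifs. An upstream window of Ltbp1, not printed, held 1 cAMP response element and no Sp1 box. Of 32851 windows of the same length, 32.7% held an Sp1 box, 1.55% a cAMP response element, 6.75% an AP-1 site, 17.1% a Smad element and 12.6% a TEAD site. Among the windows not printed, 1 of Tgfb2 and 1 of Tgfbr1 held 1 Smad element each and 1 of Ltbp1 held 2, while Tgfbr1, Ltbp2 and Ltbp4 had windows with Sp1 boxes. No window of the 8 members held an AP-1 or TEAD match in these bases. A match is a run of letters and does not show that a factor binds there.

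Library by library, the members did not deviate together. Averaged on the log2 scale relative to Ctrl-TAC, the ligands were at -0.44, -0.66 and -0.83 in VNS-TAC 1, 2 and 3, the binding proteins at -0.57, -0.48 and -1.27, and the receptors at -0.39, -0.08 and 0.42. VNS-TAC 3 thus had the lowest ligand and binding protein means and the highest receptor mean. VNS-TAC 1 was set apart by its low Tgfbr1 (-1.05) and its Tgfb1 at the Ctrl-TAC level (0.02).

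The fibroblast markers were lower on average in VNS-TAC, as were the ligands and binding proteins. All 13 markers, among them Pdgfra, Tcf21, Dpt and Col1a1, were detected and had a lower mean in VNS-TAC. Of all genes tested, 61.8% had a log2 fold change below 0. Their mean log2 difference from Ctrl-TAC stood at -0.41, -0.56 and -1.25 in libraries VNS-TAC 1, 2 and 3, and their summed level was 853 to 1293 FPKM in VNS-TAC and 1380 to 1398 FPKM in Ctrl-TAC. The defining markers Pdgfra and Tcf21 differed less, at 7.13 against 8.29 FPKM and 7.87 against 8.86 FPKM (means of VNS-TAC and Ctrl-TAC). The activated fibroblast markers that could be tested (5 of 7, among them Postn and Fap) all had a lower mean as well, and the 7 summed to 32.8 to 81.2 FPKM in VNS-TAC and 100 to 173 FPKM in Ctrl-TAC.

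Set against the fibroblast marker mean of the same library, Tgfb3 differed by -0.08 on the log2 scale and Tgfb2 by 0.11, values whose sign changed when a library was left out (0.028 without VNS-TAC 1 and -0.11 without VNS-TAC 3). Ltbp1 differed by 0.15, Tgfb1 by 0.24, Tgfbr1 by 0.26, Ltbp4 by -0.27 and Ltbp2 by -0.40, and the groups overlapped for these 7 genes (exact permutation p between 0.2 and 0.8). Without VNS-TAC 3, Tgfbr1 turned to -0.19, Ltbp1 was at 0.015 and Ltbp4 at -0.06. Without VNS-TAC 1, Tgfb1 was at 0.16 and Ltbp2 at -0.25, and Ltbp2 was at -0.61 without VNS-TAC 2. By the same measure Ltbp3 was higher by 0.37, Tgfbr2 by 0.91 and Tgfbr3 by 0.99, without overlap (exact permutation p = 0.1, adjusted 0.333 over 10 genes). Without VNS-TAC 3 these were 0.21, 0.44 and 0.47. The marker mean itself differed by -0.74, at 4.92, 4.77 and 4.07 in VNS-TAC 1, 2 and 3 against 5.35, 5.34 and 5.28 in Ctrl-TAC 1, 2 and 3. A gene with the same level in all libraries would therefore also come out higher without overlap by this measure. The lack of overlap for Ltbp3, Tgfbr2 and Tgfbr3 thus does not set them apart from unchanged genes. Col1a1, Col1a2 and Col3a1 in the marker mean are also on the list of genes induced by TGF-beta. Single markers had log2 fold changes from -1.59 (Col3a1) to -0.15 (Tcf21), so these differences depend on the markers chosen. The part of fibroblast content in the lower values was not tested.

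**Figure D4:**
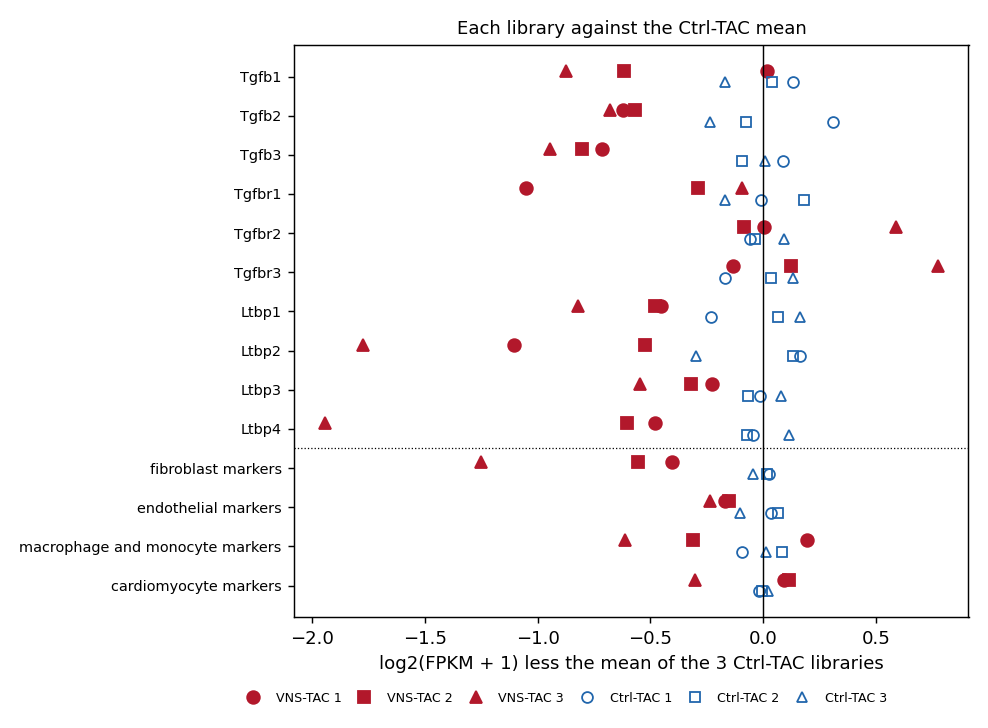
Log2(FPKM + 1) of each gene less its mean in the 3 Ctrl-TAC libraries (horizontal axis), with filled red symbols for VNS-TAC libraries and open blue symbols for Ctrl-TAC libraries, and the mean of 4 marker lists under the dotted line. VNS-TAC 3 (triangles) lies lowest for Ltbp4 (-1.94), Ltbp2 (-1.77) and the fibroblast markers (-1.25) and highest for Tgfbr3 (0.77) and Tgfbr2 (0.59).

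Among the other cell types, the endothelial, smooth muscle and pericyte, and endocardial and valve markers also averaged below the Ctrl-TAC mean in every VNS-TAC library. Of the 11 endothelial markers (among them Pecam1, Cdh5 and Kdr) 8 had a lower mean, beside 61.8% of all genes tested with a log2 fold change below 0. Their list mean was -0.17, -0.15 and -0.23 relative to Ctrl-TAC. They summed to 689 to 934 FPKM in VNS-TAC and 975 to 1031 FPKM in Ctrl-TAC. All 9 smooth muscle and pericyte markers had a lower mean (-0.45, -0.33 and -0.63 in VNS-TAC 1, 2 and 3). Neutrophil markers summed to 48.9 to 105 FPKM in VNS-TAC and 2.78 to 6.77 FPKM in Ctrl-TAC, while T and B cell markers summed to 2.02 to 2.73 FPKM in VNS-TAC and 2.19 to 2.97 FPKM in Ctrl-TAC. Endocardial and valve markers summed to 38.8 to 46.0 FPKM in VNS-TAC and 47.0 to 57.6 FPKM in Ctrl-TAC. The mean of those that could be tested was at -0.34, -0.45 and -0.38 relative to Ctrl-TAC in VNS-TAC 1, 2 and 3. Atrial markers (3842 to 9079 FPKM in VNS-TAC and 3052 to 9823 FPKM in Ctrl-TAC), erythrocyte markers (25.1 to 1503 FPKM in VNS-TAC and 183 to 578 FPKM in Ctrl-TAC), epicardial markers (3.94 to 14.2 FPKM in VNS-TAC and 4.43 to 10.98 FPKM in Ctrl-TAC) and adipocyte markers (2.64 to 25.4 FPKM in VNS-TAC and 9.30 to 64.5 FPKM in Ctrl-TAC) overlapped between the groups.

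The remaining pathway was read from 5 lists that hold 87 different genes other than the members, of which 79 could be tested. Of these, 27 were lower and 1 was higher at an unadjusted p under 0.05 in limma (11.3% of all genes tested were lower at that level and 3.79% higher), 0 passed after adjustment, and the median log2 fold change was -0.34, against -0.08 over all genes tested. The lists were written with earlier results of these data known, and several of their genes are also fibroblast markers.

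Genes induced by TGF-beta had the lowest median of the 5 lists, with 11 of 19 tested lower at an unadjusted p under 0.05 (11.3% of all genes), 0 higher (3.79% of all genes), and a median log2 fold change of -0.67. Comp, a matrix protein, was at 4.10 ± 1.95 FPKM in VNS-TAC and 12.0 ± 1.64 FPKM in Ctrl-TAC (SD, n = 3). Ccn2, another target, named after its values were seen, had 134, 84.6 and 458 FPKM in libraries VNS-TAC 1, 2 and 3, against 167, 166 and 290 FPKM in Ctrl-TAC 1, 2 and 3. VNS-TAC 1 and 2 lay below all Ctrl-TAC libraries and VNS-TAC 3 above them, and the log2 fold change was -0.21 ± 0.58 (SE; limma adjusted p = 0.877).

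Among the proteins that hold the latent complex in the matrix, 6 of 17 tested genes were lower at an unadjusted p under 0.05 and 0 higher, against 11.3% and 3.79% of all genes. Fn1, fibronectin, to which Ltbp1 is tethered, was at 8.11 ± 1.92 FPKM in VNS-TAC and 13.9 ± 1.59 FPKM in Ctrl-TAC (SD, n = 3; limma adjusted p = 0.221). Fmod, fibromodulin, a small proteoglycan that binds TGF-beta, was at 1.77 ± 0.97 FPKM in VNS-TAC and 6.76 ± 0.74 FPKM in Ctrl-TAC.

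Of the convertases and activators, 7 of 18 tested genes were lower at an unadjusted p under 0.05 and 1 was higher, against 11.3% and 3.79% of all genes, so that 1 higher gene is near the share of all genes. Thbs1, thrombospondin 1, which activates latent TGF-beta, was at 6.88, 3.37 and 3.64 FPKM in libraries VNS-TAC 1, 2 and 3, against 12.4, 21.7 and 14.9 FPKM in Ctrl-TAC 1, 2 and 3, a log2 fold change of -1.64 ± 0.28 (SE; limma adjusted p = 0.163). All VNS-TAC libraries were lower. Mmp2, a gelatinase, was at 22.9 ± 4.66 FPKM in VNS-TAC and 40.3 ± 2.82 FPKM in Ctrl-TAC (SD, n = 3). The higher gene, named after its values were seen, was Furin, the convertase that cuts the TGF-beta precursor, with a mean of 43.6 FPKM in VNS-TAC and 33.7 FPKM in Ctrl-TAC (limma unadjusted p = 0.0211).

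Smads and their regulators had the median nearest to 0 of the 5 lists, with 3 of 21 lower at an unadjusted p under 0.05, 0 higher, and a median log2 fold change of -0.18. That share of lower genes is close to the 11.3% of all genes tested. Smurf2, a ubiquitin ligase that removes the receptors, was at 7.41 ± 0.85 FPKM in VNS-TAC and 11.5 ± 1.16 FPKM in Ctrl-TAC (SD, n = 3; limma adjusted p = 0.214), and Pmepa1, a TGF-beta-induced inhibitor of Smads, at 10.8 ± 3.22 FPKM in VNS-TAC and 19.0 ± 2.71 FPKM in Ctrl-TAC. Of the co-receptors, 2 of 7 were lower at that level, against 11.3% of all genes. Sdc2, a syndecan, was at 12.2 ± 1.87 FPKM in VNS-TAC and 16.4 ± 0.66 FPKM in Ctrl-TAC, and Nrp1, a neuropilin, at 21.4 ± 5.30 FPKM in VNS-TAC and 30.1 ± 4.30 FPKM in Ctrl-TAC, with overlap. RNA of these genes does not measure the amount of active ligand or the activity of the pathway.

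**Figure D5:**
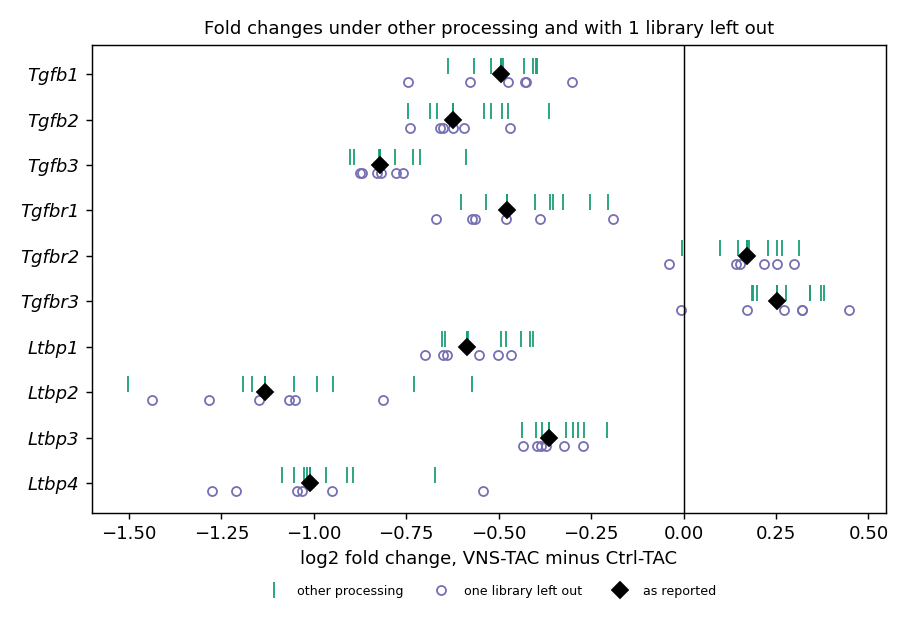
Log2 fold change of VNS-TAC minus Ctrl-TAC for each gene as reported (diamond), under other processing (ticks) and with 1 library left out (circles). Every value of the ligands, Tgfbr1 and the Ltbp genes lies below 0, while Tgfbr2 and Tgfbr3 cross 0 without VNS-TAC 3 (-0.04 and -0.01).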

How the data were processed

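Heart mRNA was enriched on oligo-dT beads (per the labels' protocols), and the authors deposited FPKM values to 2 decimals, per the file headers. The submitters' processing notes name HISAT, featureCounts 1.5.0-p3, DESeq 1.8.3 and the build GRCm38 but not what each did, and the strand setting is not given in the sources used here. Titles gave the groups, since the treatment tag says VNS in every sample, controls included. The labels do not say that each library is a separate animal, so p-values measure the spread between libraries, which may be partly technical. Of 18019 IDs, 17890 were named from RefSeq and 14 from GENCODE M21. Values were analysed as log2(FPKM + 1), which understates changes of low genes, for genes that averaged 1 FPKM or more, with limma 3.58.1 in R 4.3.3 (intensity trend, Benjamini-Hochberg over 11422 genes, threshold 0.05). Shares, sums and ratios used exact permutation tests (20 assignments, smallest p 0.1) in Python 3.11.15 with scipy 1.17.1. Exon lengths and GC content came from GENCODE M21. Members and lists were chosen with earlier results of these data known. All members are named, with the 2 genes of smallest p per pathway list, of which 1 is not reported here. FPKM carries no depth, so counting error is unknown beyond the estimate from low-value steps.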

Additional observations from a re-analysis of the deposited data

How the results depend on the processing

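The fold changes of the 10 genes were recomputed in 18 settings (pseudocounts of 0.1 and 5, other filters, size factors, quantile normalization, same sums, GC or length trends removed, limma without trend, robust or weighted by array, and the 6 fits that lack 1 library). Of 177 values 174 kept their sign. Tgfbr2 turned to -0.0037 with array weights, and with 1 library left out it ranged from -0.039 to 0.30 and Tgfbr3 from -0.0063 to 0.45. Genes past the adjusted threshold in limma, 0 as reported, numbered 1 when genes had to average 5 FPKM, 2 with size factors, 2 after quantile normalization, 2 with the GC trend removed, 1016 with array weights, and 0 to 3 with 1 library left out. Array weights, which rest the VNS-TAC side mainly on VNS-TAC 2, put Tgfb1, Tgfb2, Tgfb3 and Ltbp4 past it (4 members, smallest adjusted p = 0.00707), and the smallest adjusted p of a member lay between 0.0758 and 0.674 in the other settings. Members lower at an unadjusted p under 0.05, 6 as reported, numbered 3 with the length trend removed (Tgfb2, Tgfb3 and Ltbp2), and 4 to 7 with 1 library left out. Of all genes tested, 11.3% were lower at that level as reported, 7.6% with the length trend removed and 22.0% with array weights. That share was 5.2% to 16.7% with 1 library left out. The cause was not tested. The log2 difference of the receptor sum ranged from -0.13 to 0.25 with 1 library left out. The difference in the Tgfb2 share was 0.38 percentage points with the GC trend removed, against -0.82 as reported, and ranged from -1.83 to 0.77 with 1 library left out. Less the fibroblast marker mean, Tgfb3 ranged from -0.28 to 0.028, Tgfb2 from -0.11 to 0.28 and Tgfbr1 from -0.19 to 0.71. No paired analysis was possible because the VNS-TAC columns carry other numbers (1 to 3) than the library names in the labels, so no replicate block was run. The filter at 5 FPKM removed 3 members (Tgfb2, Tgfbr1 and Ltbp2).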
